A study of Mus musculus with 6 samples.

Results

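The fibroblast growth factor (FGF) genes, their receptors and the feedback genes of the MAP kinase pathway were compared between parental 22Rv1 cells and a subline made resistant to BL-B01D1. Members were the protein-coding genes of the deposited table named FGF, FGFR, DUSP1 to DUSP9, SPRY, SPRED, FGFRL1, ETV1, ETV4, ETV5, EGR1, FOS, FOSL1, IER3 or PHLDA1. They numbered 51 of the 58735 genes listed. Of these, 34 had enough counts to be tested, 10 more had a few counts, and 7 had none in any library.

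FGFs are secreted proteins that bind receptor tyrosine kinases together with heparan sulphate, and the receptors pass the signal through RAS to the kinase ERK. ERK switches on a set of genes within minutes to hours, among them the transcription factors EGR1, FOS and the PEA3 group (ETV1, ETV4 and ETV5). It also switches on its own inhibitors: Sprouty and SPRED proteins act upstream near RAS and RAF, and DUSP phosphatases remove phosphate from MAP kinases. The mRNA of these genes is therefore often read as a record of pathway output, although protein and phosphorylation were not measured here.

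22Rv1 cells derive from a human prostate carcinoma, and BL-B01D1 is an antibody-drug conjugate that binds EGFR and HER3 and carries the cytotoxic payload Ed-04. RNA-Seq of poly-A RNA covered 3 libraries of parental cells given vehicle and 3 libraries of the BL-B01D1_R subline, grown in stepwise increasing BL-B01D1. The subline came from 1 selection and the libraries of a group from 1 line, so p-values measure the spread between samples of these lines, and drift between the lines cannot be told apart from resistance. Whether drug was in the medium at harvest is not given in the sources used here, and the sample labels name mouse although the cell line and the gene identifiers are human.

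Counts on genes totaled 13821639 to 17251491 per library, and 3 counts corresponded to 0.174 to 0.216 CPM (counts per 1000000 counts of the library, after TMM scaling). All 9 luminal prostate markers were tested and summed to 2513 to 2588 CPM in parental and 2518 to 2571 CPM in resistant libraries, but 5 of them rose and 3 fell. KLK3 had the largest rise (log2 fold change 0.91, FDR 6.06e-04, from 2.67 to 4.96 CPM) and HOXB13 the largest fall (−0.48, FDR 2.29e-17, from 439 to 315 CPM). Endothelial markers summed to at most 0.185 CPM and leukocyte markers to at most 0.288 CPM in any library, with CDH5 and CD3E at 0 in all. The 4 neuroendocrine markers summed to 135 to 149 CPM in parental and 110 to 118 CPM in resistant libraries. Among them CHGA fell from 39.4 to 8.18 CPM (log2 fold change −2.26, FDR 2.49e-24), SYP measured 103 and 106 CPM (FDR 0.531), and INSM1 had too few counts to be tested. The 4 fibroblast markers summed to 15.3 to 17.4 CPM in parental and 13.1 to 13.4 CPM in resistant libraries. COL1A1 made up most of this sum and fell from 14.2 to 11.7 CPM (log2 fold change −0.28, FDR 0.0348). DCN did not pass the test (FDR 0.286), and PDGFRB and COL1A2 had too few counts to be tested. The part of these shifts in the results was not tested, and in bulk RNA fewer cells that express a gene and less RNA per cell cannot be told apart.

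In resistant cells 4 of the 34 tested members rose (SPRY4, FGF13, FGFR3 and DUSP3) and 12 fell (FGF2, DUSP5, FGFR4, ETV4, ETV5, DUSP9, EGR1, SPRY1, SPRED1, ETV1, SPRED2 and DUSP7) at an FDR of less than 0.05 in edgeR's quasi-likelihood test. These 16 are 47.1% of the tested members, and 35.5% of all 17142 genes tested passed. Over all genes 17.1% rose and 18.4% fell at that threshold, against 11.8% and 35.3% of the tested members. With an absolute log2 fold change greater than 1 as well, 1 member was higher (SPRY4) and 4 were lower (FGF2, DUSP5, FGFR4 and ETV4), where 5.37% of all genes passed both thresholds, 2.53% higher and 2.84% lower. The median log2 fold change was −0.17 over the tested members and 0.0038 over all genes, and 23 of the 34 members had a value below 0, as did 49.4% of all genes. All resistant libraries lay under all parental libraries for 13 of the 34 members (22.8% of all genes) and above them for 5 (22.1% of all genes).

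**Figure D1:**
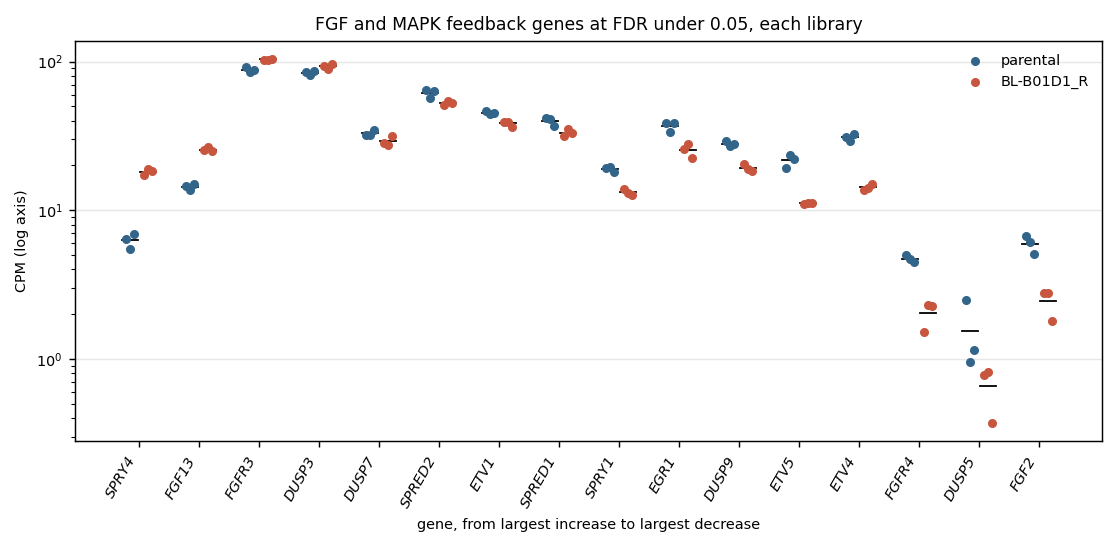
CPM on a log axis for the 16 members at an FDR of less than 0.05, with 1 point per library (blue, parental; red, BL-B01D1_R; 3 libraries each) and black lines at the group means. The groups did not overlap for any of the 16 genes, which were picked by the test on these same libraries. Over all genes tested, the groups did not overlap for 22.1% with BL-B01D1_R above and 22.8% with it below. DUSP5 shows 1 parental library, at 2.49 CPM, apart from the others of its group.

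Of the 18 secreted FGF ligands, 7 (FGF3, FGF4, FGF6, FGF16, FGF19, FGF20 and FGF23) had no count in any library, which allows up to 3 counts, and 7 (FGF1, FGF5, FGF8, FGF9, FGF10, FGF18 and FGF21) had at most 10 counts in a library and were not tested. The 4 tested ligands were FGF2, FGF7, FGF17 and FGF22. FGF21, a hormone of the fasting response, reached 4, 3 and 0 counts in parental libraries 1, 2 and 3 and 0 in each resistant library, a difference that was not detectable at this depth.

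FGF2, a broadly acting mitogen of the FGF1 subfamily and a classical angiogenic factor, was the only tested ligand past the threshold. It measured 6.67, 6.07 and 5.11 CPM in parental libraries 1, 2 and 3 and 2.77, 2.79 and 1.79 CPM in resistant libraries 1, 2 and 3. Every resistant library lay well under the lowest parental library. The log2 fold change was −1.29 (SE 0.196, FDR 9.31e-07), a 2.44-fold lower level that rested on 115, 102 and 71 counts against 46, 41 and 29. FGF2 (ENSG00000138685) lies on the forward strand of chromosome 4 of hg38, from 122826708 to 122898236, and 9540 bases of it overlap the annotated span of NUDT6 on the opposite strand. Counts of such pairs are uncertain where strand was not used, and NUDT6 itself had 136 to 150 counts in parental and 132 to 172 counts in resistant libraries (log2 fold change 0.13, FDR 0.453).

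The other 3 tested ligands had overlapping groups. FGF17, of the FGF8 subfamily, measured 3.95 ± 0.694 CPM (SD, n = 3) in parental and 3.19 ± 0.955 CPM in resistant cells, and the 95% interval of its log2 fold change ran from −0.73 to 0.13. FGF22 measured 2.58 ± 0.702 and 2.80 ± 0.711 CPM (interval −0.37 to 0.61). FGF7, the keratinocyte growth factor, measured 1.57 ± 0.780 and 1.68 ± 0.523 CPM (interval −0.57 to 0.78). A fall of the size seen for FGF2 lay outside each of these intervals. The whole annotated span of FGF7, 65680 bases, lies within that of FAM227B on the opposite strand. FAM227B had 53 to 93 counts per library against 12 to 37 for FGF7, whose counts are uncertain where strand was not used.

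FGF11 to FGF14 are FGF homologous factors, which stay inside the cell, bind voltage-gated sodium channels and do not act as ordinary ligands of the FGF receptors. FGF13 was the most abundant of them per length and measured 14.4, 13.6 and 15.1 CPM in the parental libraries. It reached 25.3, 26.4 and 25.0 CPM in the resistant libraries, all far above the parental range. The log2 fold change was 0.84 (SE 0.085, FDR 8.17e-11), or 1.79-fold higher, from 209 to 249 counts against 389 to 420. FGF11 and FGF12, with 1.89 and 1.02 CPM in parental and 1.48 and 0.82 CPM in resistant cells, did not pass the test (FDR 0.413 and 0.566). FGF14 had at most 1 count in any library.

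Among FGFR1 to FGFR4, FGFR3 carried nearly all of the transcript per length, and FGFR4 fell while FGFR3 rose slightly. Levels of different genes are given per length, as FPKM (CPM divided by the gene length in kilobases that the table lists). In parental cells FGFR3 stood at 18.2 ± 0.636 FPKM (SD, n = 3), FGFR1 at 1.20 ± 0.086, FGFR4 at 0.977 ± 0.054 and FGFR2 at 0.0026. FGFRL1, a receptor relative without a kinase domain, stood at 9.75 ± 0.485 FPKM.

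FGFR4, which together with KLB serves as the receptor for the bile acid hormone FGF19, measured 4.99, 4.70 and 4.47 CPM in parental and 1.51, 2.31 and 2.28 CPM in resistant libraries. All resistant libraries stayed far under the lowest parental library. The log2 fold change was −1.22 (SE 0.214, FDR 1.12e-05), 2.33-fold lower, on 86, 79 and 62 counts against 25, 34 and 37. FGFR4 (ENSG00000160867) lies on the forward strand of chromosome 5, from 177086886 to 177098144. Its partner KLB had a log2 fold change of −0.14 (FDR 0.408).

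FGFR3 measured 91.4, 85.3 and 88.0 CPM in parental and 103, 103 and 104 CPM in resistant libraries, with no overlap. The log2 fold change of 0.23 (SE 0.042, FDR 3.08e-05) was a 1.17-fold difference, small beside that of FGFR4 but measured on 1221 counts or more per library. FGFR1 had 215 to 300 counts in every library and overlapping groups (log2 fold change −0.09, 95% interval −0.28 to 0.11), and part of its span overlaps LETM2 on the other strand. FGFRL1 had a log2 fold change of 0.03 (interval −0.099 to 0.155), so a change of the size of FGFR3 lay outside its interval. FGFR2 had no more than 2 counts in any library.

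Within the summed FPKM of FGFR1 to FGFR4, FGFR3 made up 89.4%, 88.6% and 89.9% in parental and 94.0%, 92.3% and 93.3% in resistant libraries. FGFR4 made up 4.90%, 4.91% and 4.58% in parental and 1.39%, 2.08% and 2.05% in resistant libraries. The ratio of FGFR3 to FGFR4 per length, which does not depend on how libraries are scaled, was 18.1 to 19.6 in parental and 44.3 to 67.8 in resistant libraries.

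**Figure D2:**
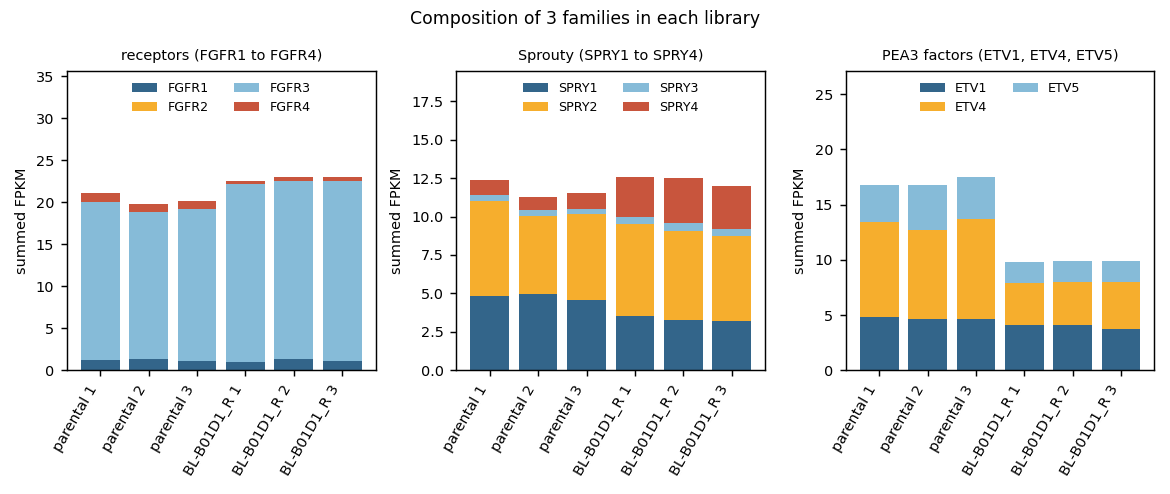
Summed FPKM in each of the 6 libraries, stacked by gene, for FGFR1 to FGFR4 (left), SPRY1 to SPRY4 (middle) and the PEA3 factors (right). FGFR3 fills 88.6% or more of each receptor bar, the Sprouty bars are of similar height with a larger SPRY4 part in BL-B01D1_R, and the PEA3 bars fall from 16.8 or more to 9.90 or less.

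The 4 Sprouty genes split: SPRY4 rose, SPRY1 fell, and SPRY2 and SPRY3 did not pass the test. SPRY4, an ERK-induced inhibitor of receptor tyrosine kinase signalling, had the largest rise of all members. It measured 6.38, 5.48 and 6.92 CPM in parental and 17.2, 18.9 and 18.5 CPM in resistant libraries. All resistant libraries stood far above the highest parental library. The log2 fold change was 1.54 (SE 0.115, FDR 1.14e-14), 2.92-fold higher, on 110, 92 and 96 counts against 285, 278 and 300. SPRY4 (ENSG00000187678) lies on the reverse strand of chromosome 5, from 142310427 to 142326455. The antisense gene SPRY4-AS1, which overlaps 1163 bases of its span, had 9 to 20 counts in all libraries and a log2 fold change of −0.09 (FDR 0.891).

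SPRY1 moved the other way, from 19.2, 19.7 and 18.2 CPM in parental to 13.9, 13.1 and 12.8 CPM in resistant libraries, again without overlap. Its log2 fold change was −0.52 (SE 0.093, FDR 1.44e-05). SPRY2 measured 17.0 ± 1.60 CPM (SD, n = 3) in parental and 17.5 ± 0.731 CPM in resistant cells, with a 95% interval of −0.15 to 0.23 that holds neither the change of SPRY1 nor that of SPRY4. SPRY3 measured 3.32 ± 0.197 and 4.27 ± 0.371 CPM, and although its resistant libraries all lay above its parental ones, its FDR was 0.151.

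The summed Sprouty FPKM was 11.7 ± 0.560 (SD, n = 3) in parental and 12.4 ± 0.309 in resistant cells, with overlapping libraries, and its make-up differed. SPRY4 supplied 8.13% ± 0.887 of it in parental and 22.5% ± 1.42 in resistant cells (SD, n = 3), and SPRY1 supplied 41.0% ± 2.63 and 27.0% ± 0.757. SPRY2 supplied 47.8% ± 2.34 and 46.7% ± 0.891. Per length, SPRY1 exceeded SPRY4 by a factor of 4.35 to 5.94 in parental and of 1.14 to 1.34 in resistant libraries.

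The SPRED proteins bind neurofibromin and bring it to RAS. SPRED2, the most abundant of them per length, measured 64.1, 57.1 and 63.5 CPM in parental and 51.3, 54.2 and 52.3 CPM in resistant libraries, a log2 fold change of −0.23 (SE 0.055, FDR 0.00104). SPRED1 measured 41.4, 40.8 and 37.0 CPM in parental and 31.4, 35.2 and 33.2 CPM in resistant libraries, a log2 fold change of −0.26 (SE 0.067, FDR 0.00186). Both shifts were small and left the groups apart. SPRED3 measured 3.94 ± 0.833 and 4.76 ± 0.551 CPM and did not pass the test (FDR 0.290).

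All 9 DUSP genes were tested, and 1 rose, 3 fell and 5 did not pass. DUSP9, which acts mainly on ERK in the cytoplasm, measured 29.4, 27.0 and 27.8 CPM in parental and 20.6, 18.9 and 18.2 CPM in resistant libraries. The groups were well apart, with a log2 fold change of −0.55 (SE 0.079, FDR 3.61e-07). DUSP7, of the same cytoplasmic group, measured 32.2, 32.2 and 34.7 CPM in parental and 28.2, 27.5 and 31.6 CPM in resistant libraries. Its log2 fold change of −0.18 (SE 0.072, FDR 0.0462) sat at the threshold, and the call was lost without parental library 2 or 3 and without resistant library 1 or 2 (FDR 0.0608, 0.167, 0.160 and 0.195).

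DUSP6, the third member of that group and a much used readout of ERK activity, showed no difference past the threshold. It measured 7.02, 7.68 and 6.41 CPM in parental and 5.49, 6.39 and 7.15 CPM in resistant libraries. The groups overlapped, and the 95% interval of its log2 fold change ran from −0.45 to 0.14, which leaves out changes as large as those of ETV4 and ETV5. Summed per length, DUSP6, DUSP7 and DUSP9 stood at 17.5 ± 0.359 FPKM (SD, n = 3) in parental and 13.5 ± 0.350 FPKM in resistant cells.

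DUSP1, DUSP2, DUSP4 and DUSP5 are the nuclear, rapidly induced phosphatases. DUSP5 measured 2.49, 0.953 and 1.15 CPM in parental and 0.784, 0.816 and 0.370 CPM in resistant libraries, that is 43, 16 and 16 counts against 13, 12 and 6. Its parental mean rests on library 1. The log2 fold change of −1.24 (SE 0.400, FDR 0.0132) became −0.67 without that library (FDR 0.302) and −0.95 without resistant library 3 (FDR 0.0959). DUSP2, the most abundant member per length at 27.0 ± 1.10 FPKM (SD, n = 3) in parental and 25.9 ± 1.07 FPKM in resistant cells, had overlapping groups and an interval of −0.17 to 0.056. DUSP1 had an interval of −0.089 to 0.26. DUSP4 measured 14.2, 13.0 and 13.5 CPM in parental and 15.0, 11.6 and 9.86 CPM in resistant libraries and passed the test only without resistant library 1, with a log2 fold change of −0.34 (FDR 0.0326).

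DUSP3, a small atypical phosphatase that dephosphorylates ERK and JNK, rose from 84.9, 80.7 and 85.8 CPM in parental to 93.7, 89.6 and 96.0 CPM in resistant libraries (log2 fold change 0.15, SE 0.044, FDR 0.00532). The shift was 1.11-fold, with no overlap between the groups. DUSP8, which acts on JNK and p38, measured 43.4 ± 3.70 and 42.5 ± 5.20 CPM (SD, n = 3), with an interval of −0.17 to 0.11.

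The PEA3 factors ETV1, ETV4 and ETV5, ETS transcription factors that ERK signalling induces and that are rearranged in some prostate cancers, all fell. ETV4 measured 31.0, 29.1 and 32.5 CPM in parental and 13.8, 14.0 and 15.1 CPM in resistant libraries. Its log2 fold change was −1.11 (SE 0.082, FDR 1.12e-14), or 2.16-fold lower, on 451 counts or more against 245 or fewer. ETV4 (ENSG00000175832) lies on the reverse strand of chromosome 17, from 43527844 to 43579620. Its whole annotated span lies within that of DHX8 on the opposite strand, so ETV4 counts are uncertain where strand was not used. DHX8 had 1206 to 1584 counts in parental and 1227 to 1559 counts in resistant libraries (log2 fold change 0.0082, FDR 0.916).

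ETV5 measured 19.4, 23.6 and 22.3 CPM in parental and 11.0, 11.1 and 11.2 CPM in resistant libraries. The resistant libraries were almost equal and all far under the parental ones, and the log2 fold change was −0.96 (SE 0.097, FDR 6.64e-11), just inside the fold threshold, which it passed without parental library 1 (−1.04). Part of the ETV5 span is shared on the same strand with DGKG, which had 11 to 32 counts in all libraries. ETV1 measured 46.5, 44.7 and 44.8 CPM in parental and 39.5, 39.4 and 36.2 CPM in resistant libraries, a smaller log2 fold change of −0.24 (SE 0.061, FDR 0.00167). The summed FPKM of the PEA3 factors was 17.0 ± 0.419 (SD, n = 3) in parental and 9.87 ± 0.043 in resistant cells. ETV4 was the most abundant of them in parental cells, with 50.3% ± 1.92 of the sum, and equal to ETV1 within the spread in resistant cells (40.1% ± 1.92 and 40.4% ± 2.01).

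ETV4 and SPRY4 moved in opposite directions and stood at places 288 and 289 by p-value among the 17142 genes tested. Per length, ETV4 exceeded SPRY4 by a factor of 8.85, 9.65 and 8.55 in parental libraries and of 1.46, 1.35 and 1.49 in resistant libraries.

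The immediate early and ERK-induced genes had negative log2 fold changes, of which only that of EGR1 passed the test. EGR1, a zinc finger factor induced within minutes of ERK activation, measured 38.3, 33.6 and 38.4 CPM in parental and 25.8, 27.9 and 22.4 CPM in resistant libraries. The groups stood apart, with a log2 fold change of −0.54 (SE 0.077, FDR 2.99e-07). FOS, a subunit of AP-1, measured 8.53, 6.97 and 6.99 CPM in parental and 6.15, 5.30 and 6.16 CPM in resistant libraries. Its groups did not overlap, but its FDR was 0.0577 (log2 fold change −0.35, SE 0.147). IER3 and PHLDA1 had log2 fold changes of −0.57 and −0.07 with intervals of −1.31 to 0.17 and −0.43 to 0.29, and FOSL1 had 3 to 12 counts and was not tested.

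**Figure D3:**
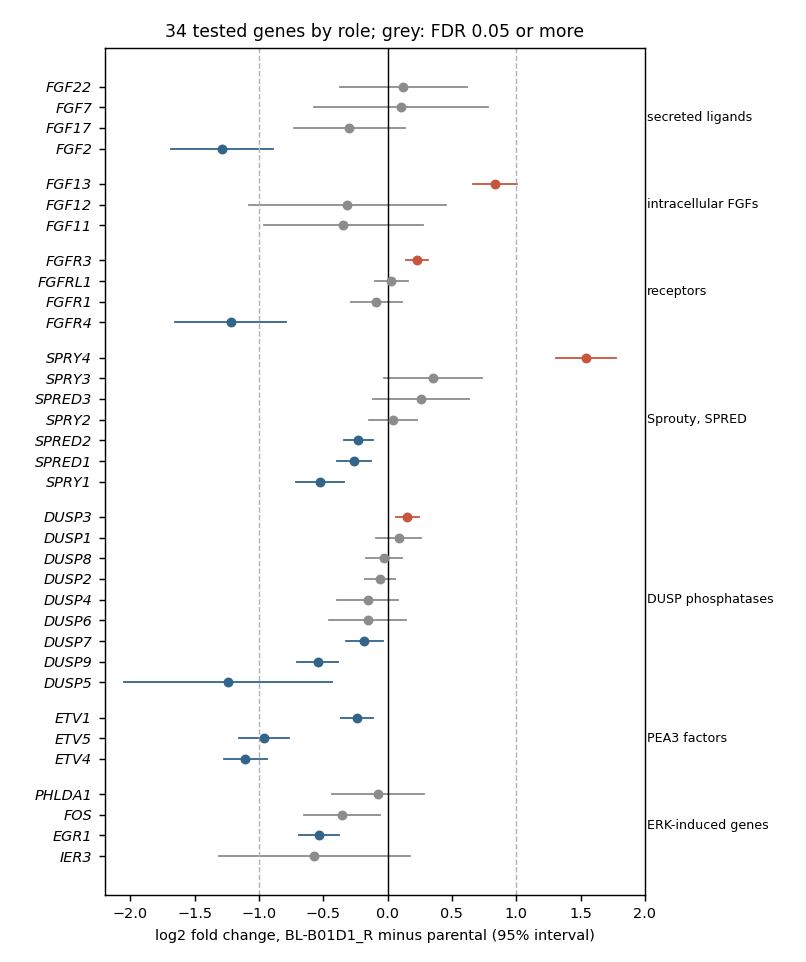
Log2 fold change (BL-B01D1_R minus parental) of the 34 tested members from edgeR, grouped by role, with 95% intervals as bars; red and blue mark an FDR of less than 0.05 and dashed lines an absolute log2 fold change of 1. SPRY4 stands alone to the right of 1, FGF2, DUSP5, FGFR4 and ETV4 lie to the left of −1, and the intervals of low-count genes such as DUSP5, IER3 and FGF12 are the widest.

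In order of level per length, DUSP2 (27.0 FPKM), FGFR3 (18.2 FPKM) and DUSP3 (16.7 FPKM) led the members in parental cells and kept these places in resistant cells at 25.9, 21.3 and 18.6 FPKM. FGFR3 and DUSP3 differed by more than their spread in both groups. EGR1 went from place 5 to 8, ETV4 from 10 to 14, and SPRY4 from 23 to 16. The most abundant secreted ligands were far lower in parental cells, with FGF17 at 1.20 ± 0.211, FGF22 at 0.928 ± 0.253 and FGF2 at 0.879 ± 0.116 FPKM (SD, n = 3). FGF22 overlapped both of the others, whereas FGF17 lay above FGF2 in every library. In resistant cells FGF2, at 0.362 ± 0.085 FPKM, stood under FGF22 (1.01 ± 0.256) and FGF17 (0.969 ± 0.291).

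Neighbouring genes of the members with the largest changes were looked up after their values were seen, and are given as a description. FGF2 and SPRY1, both lower, share a stretch of chromosome 4 with NUDT6 and SPATA5 between them, which had log2 fold changes of 0.13 and −0.13 (FDR 0.453 and 0.159). The nearest tested protein-coding genes on either side of SPRY4, NDFIP1 and ARHGAP26, had log2 fold changes of 0.11 and 0.13 (FDR 0.0401 and 0.367) against 1.54 for SPRY4. Beside FGFR4, ZNF346 and NSD1 had log2 fold changes of −0.17 and −0.21 (FDR 0.0984 and 9.25e-06). DUSP3 lies 187 kb from ETV4 and moved the other way.

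Other genes of the pathway were taken from lists by function, and their members are counted against the 17.1% of all genes that rose and the 18.4% that fell. The heparan sulphate co-receptors, carriers and Klotho proteins had 16 tested genes, of which 5 rose and 5 fell, none by a log2 fold change greater than 1. GPC6, a glypican, had the smallest FDR, with 52.0, 54.6 and 49.1 CPM in parental and 81.1, 83.6 and 85.0 CPM in resistant libraries (log2 fold change 0.68, SE 0.051, FDR 1.19e-14). Of 15 tested enzymes of heparan sulphate synthesis and editing, 2 rose and 5 fell. HS3ST4, a 3-O-sulphotransferase, fell (log2 fold change −1.78, FDR 6.39e-05), and its relative HS3ST1 rose (log2 fold change 1.75, FDR 0.00547) from 2 to 8 counts to 12 to 17 counts.

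The adaptors and the RAS-ERK cascade had 33 tested genes, of which 1 rose, 11 fell and 21 did not pass, with a median log2 fold change of −0.04. The genes that fell by a log2 value greater than 1 were RPS6KA2, an ERK-activated S6 kinase (−1.33, FDR 4.97e-05, 42 to 58 counts against 17 to 25), and KSR1, a scaffold for RAF, MEK and ERK (−1.16, FDR 0.00256, 33 to 51 counts against 10 to 22). RASA1, a GTPase-activating protein that turns RAS off, was the gene that rose (log2 fold change 0.20, FDR 0.00310). FRS2, the adaptor that links FGF receptors to RAS, had a log2 fold change of −0.04 (FDR 0.645).

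Of 25 tested immediate early and ERK output genes outside the members, 12 fell and 1 rose, with a median log2 fold change of −0.24. FOSB, an AP-1 subunit, fell by more than 1 on the log2 scale (−1.09, SE 0.224, FDR 1.27e-04), from 4.47, 4.59 and 3.46 CPM in parental to 1.57, 2.11 and 2.22 CPM in resistant libraries. EPHA4 was the gene that rose (log2 fold change 1.43, FDR 0.0103), on 4, 19 and 2 counts in parental and 18, 24 and 25 counts in resistant libraries. CCN1 and CCN2 are listed in the table under the older symbols CYR61 and CTGF, which were looked up after the data were seen. CYR61 had a log2 fold change of −0.49 (FDR 0.00440) and CTGF of −1.77 (SE 0.313), with 56, 54 and 26 counts in parental and 17, 13 and 9 in resistant libraries. CCND1, which encodes cyclin D1, stood at 3966 CPM in parental and 4039 CPM in resistant cells (log2 fold change 0.03, FDR 0.339).

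Among 12 other dual-specificity phosphatases tested, 2 rose and 2 fell. DUSP26 fell from 30, 17 and 17 counts to 7, 5 and 11 counts (log2 fold change −1.45, SE 0.410, FDR 0.00463). Of the 7 tested genes that restrain PEA3 factors or neighbour the FGF3, FGF4 and FGF19 cluster on chromosome 11, 1 passed the test: ATXN1, which binds the repressor CIC, fell (log2 fold change −0.63, SE 0.075, FDR 5.05e-09). CIC itself, which represses ETV1, ETV4 and ETV5, measured 88.9 CPM in parental and 83.6 CPM in resistant cells (log2 fold change −0.09, FDR 0.200).

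**Figure D4:**
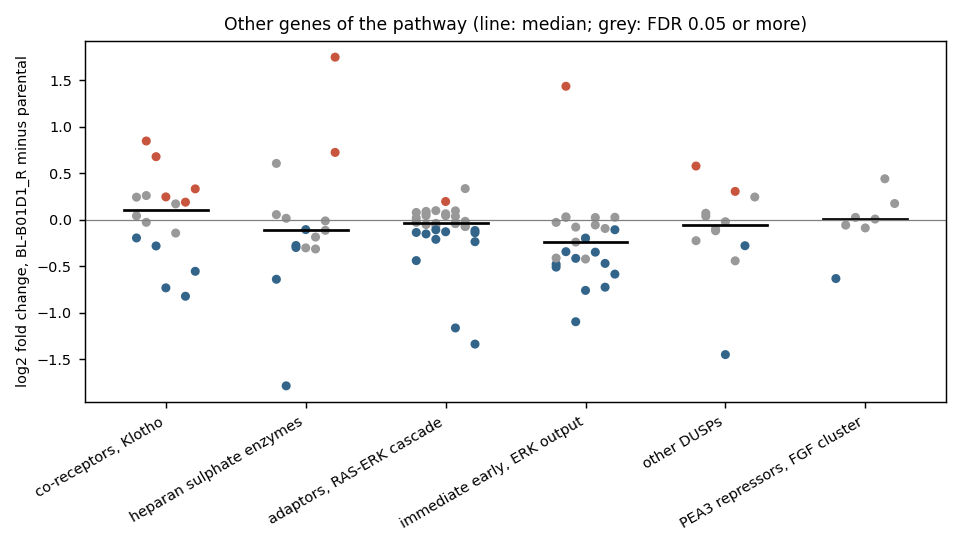
Log2 fold change (BL-B01D1_R minus parental) of each tested gene of 6 lists of other pathway genes, with 1 point per gene (red, higher and blue, lower at an FDR of less than 0.05; grey, not past it) and black lines at the list medians. The list medians lie between −0.24 for the immediate early and ERK output genes and 0.11 for the co-receptors, and HS3ST4 and HS3ST1 mark the lowest and highest points.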

How the data were processed

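RNA-Seq of 6 libraries was analysed, 3 from the vehicle-treated parental line and 3 from the BL-B01D1_R subline, grouped by the sample titles. Per the labels and the methods, the authors trimmed reads with fastp, mapped them to hg38 with HISAT2 2.0.5, counted them per gene with featureCounts 1.5.0-p3, and deposited raw counts without normalization. The annotation release and strand setting are not given in the sources used here, so counts of overlapping genes are uncertain. Gene lengths are another quantity that the authors listed in the same table. Counts were filtered with filterByExpr, scaled with TMM and tested with edgeR 4.0.16 in R 4.3.3 (quasi-likelihood test, Benjamini-Hochberg adjustment over 17142 genes). The SE is the log2 fold change divided by the square root of F, and 95% intervals use the t quantile of the fit's degrees of freedom. The biological coefficient of variation was 3.51%. Floors of 3 counts cover counting error only.

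Genes were counted at an FDR under 0.05 alone and, after the study's rule, also with an absolute log2 fold change over 1. Members and lists were chosen with earlier results of these data known. All members are named. Members past the FDR are given per library, and list genes past both thresholds, or else that with the smallest FDR, are named. Genes named beyond that (KLB, RASA1, FRS2, CCND1, CIC, the cell type markers named singly, the overlapping genes and the neighbours) were chosen after their values were seen. Some genes are not reported here. Alternatives were limma-voom (limma 3.58.1), DESeq2 1.42.0, other scaling, filters and prior counts, protein-coding genes only, the replicate number as a block, and each library left out in turn. The code was tested on simulated data. No human sequence was used here.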

Additional observations from a re-analysis of the deposited data

How the results depend on the processing

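Across 15 alternatives, 9 of other settings and 6 that each left out a library, the number of members that rose was 4 and the number that rose by a log2 fold change greater than 1 was 1 throughout. The number that fell, 12, ranged from 10 with DESeq2 to 13 with library size alone, and from 11 to 12 with a library left out. The number that fell by more than 1, 4, ranged from 3 to 4. Over all genes, 3153 fell in the main test, 2540 with DESeq2 and 3473 with library size alone. With a library left out, 2701 to 2900 of all genes fell. The share of all genes past the FDR was 35.5% in the main test, 28.2% with DESeq2 and 35.7% with library size alone. Of 508 values of single members, 486 kept their direction and their side of an FDR of 0.05. The calls lost were those of DUSP5 (DESeq2, FDR 0.0520) and DUSP7 (DESeq2, 0.116; no filter, 0.0782; protein-coding genes only, 0.0550), beside the losses without single libraries given in the report. FOS passed with library size alone (−0.37, FDR 0.0461). The cause of these changes was not tested. The direction reversed without single libraries for 5 genes that did not pass the test, whose log2 fold changes then ranged from −0.124 to 0.050 (DUSP8), −0.091 to 0.356 (FGF22), −0.269 to 0.464 (FGF7), −0.181 to 0.063 (PHLDA1) and −0.027 to 0.117 (SPRY2). Over all genes, 434 were called higher and 487 lower, against 248 and 287 with at least 10 counts in every library. The replicate number as a block gave 12 members lower and 4 higher and changed no call. Deviations of same-numbered libraries did not correlate (−0.008, −0.020 and −0.016), so the numbers were not taken to pair the cultures. Low counts limit what can be said of the ligands.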
